A study of Cicer arietinum with 24 samples.

Results

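The genes CaDRM1 (Ca_12577) and CaDRM2 (Ca_03062) encode putative DNA methyltransferases of the domains rearranged methyltransferase (DRM) family of chickpea (Cicer arietinum). They were taken by identifier, with the names given by the study, and are 2 of the 27966 entries with a gene identifier in the expression tables. Each had a single entry that carried no other identifier, and both were expressed in all 8 groups. Transcript abundance had been measured by RNA-seq in whole seeds of field-grown plants of the large-seeded cultivar JGK 3 at 7 successive stages and in leaves, which were taken from plants at mid-maturation of the seeds. S1, S2 and S3 are early-, mid- and late-embryogenesis, S5 is mid-maturation and S7 is late-maturation. S4 and S6 lie between them and were not named further in the sources used here. All groups shared the cultivar and no treatment was given. Each group had 3 samples, represented together by 1 FPKM value per gene (fragments per kilobase of exon, scaled to the depth of the library). The spread between replicates could therefore not be taken into account, and no difference given here was tested. Read depth was unknown.

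In plants, DRM enzymes add methyl groups to cytosines that were unmethylated before. In Arabidopsis, DRM2 is guided to its targets by small interfering RNAs bound to an ARGONAUTE protein, in the RNA-directed DNA methylation pathway, and is the main enzyme of this pathway. It methylates transposable elements and repeats, including CHH sites, where H is any base except guanine. Such sites lie on 1 strand only, so that their methylation has to be made anew after replication. MET1 copies CG methylation onto new DNA strands in Arabidopsis, CMT3 acts on CHG sites and CMT2 on CHH sites in heterochromatin. The study asked whether expression of these enzymes followed the gain of CHH methylation in transposable elements during seed development.

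CaDRM2 was the more abundant of the pair in seeds and its values were close together from S1 to S7. It had 24.0 FPKM at S1, 22.7 at S2, 19.96 at S3, 19.6 at S4, 24.2 at S5, 21.5 at S6 and 25.3 at S7, with 6.53 FPKM in leaf. All seed values were close to each other and well above leaf. The mean over the stages was 22.5 ± 2.19 FPKM (SD over 7 stages, not over replicates). In descending order the stages were S7, S5, S1, S2, S6, S3 and S4, and the highest value was 1.29-fold the lowest. S7 was at 1.05-fold of S1.

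CaDRM1 varied more. It had 14.4 FPKM at S1, 11.4 at S2, 11.7 at S3, 18.7 at S4, 16.5 at S5, 11.2 at S6 and 13.5 at S7, with 7.91 FPKM in leaf. The seed values formed a single maximum at S4 and S5 between 2 lower stretches, and all were above leaf. The mean over the stages was 13.9 ± 2.86 FPKM (SD over 7 stages), and the highest value was 1.68-fold the lowest. The order was S4, S5, S1, S7, S3, S2 and S6. The last 3 of these, between 11.2 and 11.7 FPKM, were the closest to each other, and without replicates no order between neighbouring stages can be told from error.

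**Figure D1:**
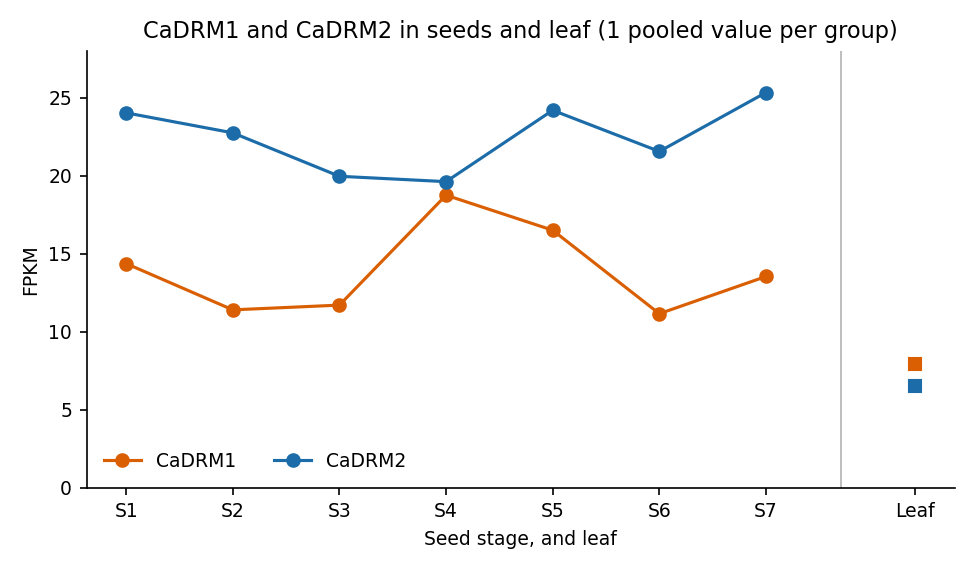
FPKM (y axis) of CaDRM1 and CaDRM2 at the seed stages S1 to S7 (circles) and in leaf (squares), as deposited, 1 pooled value per group. CaDRM2 stays between 19.6 and 25.3 FPKM in seeds and CaDRM1 between 11.2 and 18.7 FPKM, against 6.53 and 7.91 FPKM in leaf.

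The comparison of seed with leaf asks whether the genes were more abundant in the developing seed. Differences were taken on log2(FPKM + 1), which understates changes of low values, and a limit of 2-fold was used. CaDRM2 was higher in seeds by between 1.45 (S4) and 1.81 (S7) on this scale, and the linear ratio of the seed mean to leaf was 3.44. It passed the 2-fold limit at 7 of 7 stages in the deposited values, and at 5 of 7 when the libraries were brought to the same summed FPKM. Among the 19168 expressed genes, which reached 1 FPKM in 1 group or more, 4.30% did so at all stages. CaDRM1 was higher in seeds by between 0.45 (S6) and 1.15 (S4), with a ratio of 1.76 for the seed mean, and on this scale passed the limit at S4 only in the deposited values and with the median ratio. Its linear ratio to leaf was also above 2 at S5, at 2.09. With each of the other 3 scalings, described below, it passed the limit on log2(FPKM + 1) at 3 stages. By linear ratio it was also above 2-fold of leaf at S3 and S5 with the same sum. When the sum left out the most abundant genes, this was so at S2 and S3. In the deposited values CaDRM1 was above leaf at 7 of 7 stages, which 22.0% of the expressed genes were. At single stages, 25.1% of expressed genes were at least 2-fold higher than in leaf at S1, 23.9% at S2, 24.3% at S3, 26.0% at S4, 25.8% at S5, 26.5% at S6 and 27.1% at S7. A 2-fold excess of CaDRM2 at any 1 stage was therefore common, and an excess at every stage was not.

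Both genes were also set against genes of similar mean level, where the larger of both mean FPKM values over S1 to S7 was at most 25% above the smaller. Of 2136 such genes for CaDRM2, 301 (14.1%) had a larger difference of seed mean over leaf, and the median of these genes was 0.24 against 1.64 for CaDRM2. In the deposited values, 132 of the 2136 genes (6.18%) were at least 2-fold higher than leaf at every stage. Of 2045 such genes for CaDRM1, 715 (35.0%) had a larger difference, with a median of 0.20 against 0.72 for CaDRM1. In bulk tissue, more cells with a transcript and more transcript per cell cannot be told apart. The identifiers were not paired with gene names, so markers of leaf or of the seed tissues were not checked here.

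The level of CaDRM2 relative to CaDRM1 could be compared between seed and leaf without scaling between libraries, by taking their ratio within each group. This ratio does not show whether either gene was higher in seed than in leaf. The ratio was 1.67 at S1, 1.99 at S2, 1.71 at S3, 1.05 at S4, 1.47 at S5, 1.93 at S6 and 1.87 at S7, against 0.825 in leaf. CaDRM2 thus had the higher FPKM at every seed stage, and CaDRM1 had it in leaf. The ratio came closest to 1 at S4, where CaDRM1 was highest and CaDRM2 lowest. Over the 7 stages the FPKM values of CaDRM1 and CaDRM2 had a Pearson's r of -0.06 and a Spearman's rho of 0.04, given as a description over 7 pooled libraries that both genes share.

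**Figure D2:**
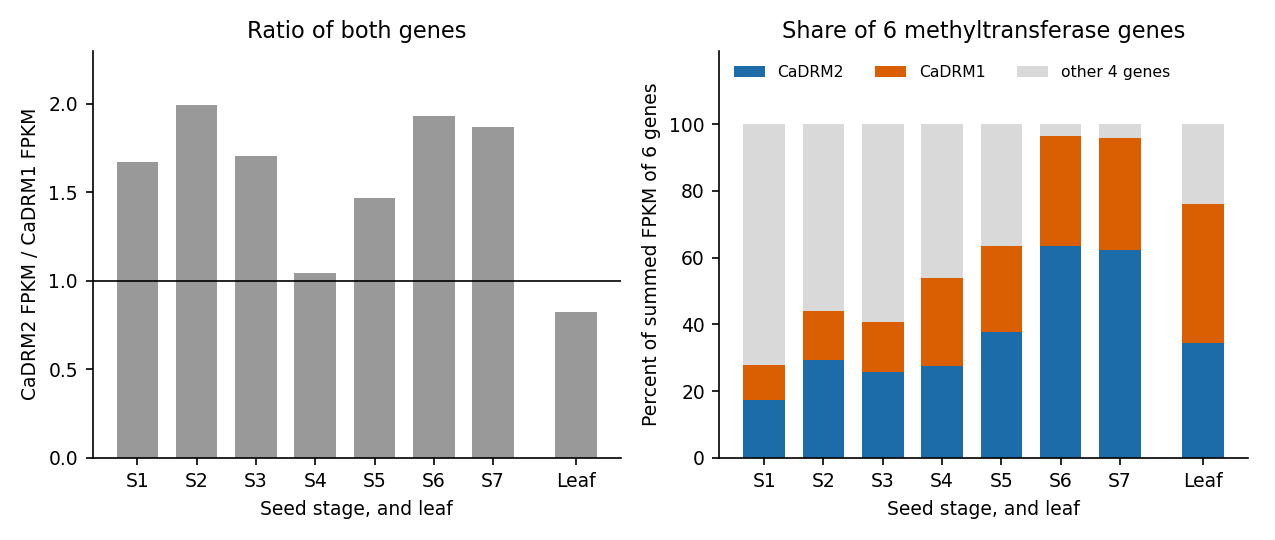
Left, ratio of CaDRM2 to CaDRM1 FPKM at S1 to S7 and in leaf, with a line at 1. Right, share of the summed FPKM of 6 methyltransferase genes held by CaDRM2, CaDRM1 and the other 4 genes. The ratio lies between 1.05 and 1.99 in seeds and at 0.825 in leaf, and both DRM genes together hold 27.7% of the sum at S1 and 96.4% at S6.

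To describe how steady the genes stayed from S1 to S7, the range of log2(FPKM + 1) over the 7 stages was used. It was 0.35 for CaDRM2 and 0.70 for CaDRM1. Both were thus less than 2-fold apart over the whole series, which held for 15.3% of the 19168 expressed genes. Among genes of similar mean level, 7 of 2136 (0.328%) had a smaller range than CaDRM2, and the median range of these genes was 1.95. For CaDRM1, 120 of 2045 (5.87%) had a smaller range, with a median of 1.89. CaDRM2 therefore lay among the steadiest genes of its level in the deposited values, and CaDRM1 in the lower part of the distribution. Leaving out any 1 stage gave between 0.234% (without S7) and 0.796% (without S5) for CaDRM2, and between 2.93% (without S4) and 9.14% (without S5) for CaDRM1. Without both S6 and S7 the shares were 2.90% for CaDRM2 and 26.1% for CaDRM1. In the deposited values CaDRM1 was thus less set apart from genes of its level over S1 to S5. With the same summed FPKM in each library the direction was the opposite. CaDRM1 was then at 12.65% without S6 and S7, against 39.1% with all stages, and CaDRM2 at 12.61% against 31.3%.

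**Figure D3:**
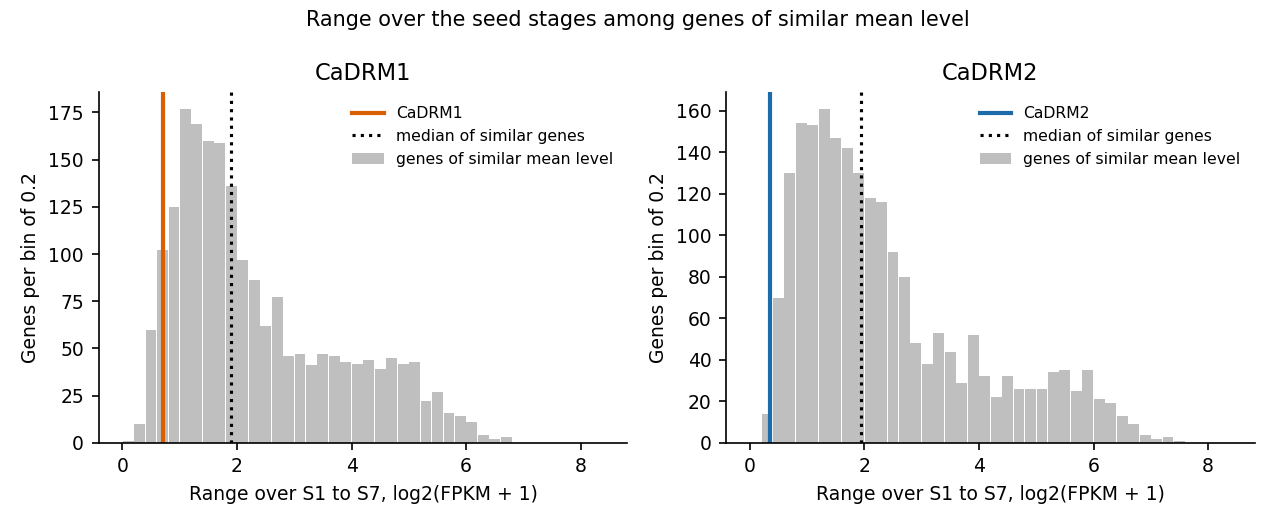
Number of genes of similar mean level (y axis, grey bars, bins of 0.2) by their range of log2(FPKM + 1) over S1 to S7 (x axis), for CaDRM1 (left, 2045 genes) and CaDRM2 (right, 2136 genes). The coloured lines mark the members at 0.70 and 0.35, and the dotted lines the medians of the grey genes at 1.89 and 1.95.

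In the deposited values the largest step of CaDRM1 was from late-embryogenesis to S4, with 18.7 FPKM at S4 against 11.7 FPKM at S3, a difference of 0.64 on log2(FPKM + 1). It was larger than in 67.9% of genes of similar mean level. CaDRM1 was then lower at S6 (11.2 FPKM) than at S5 (16.5 FPKM), by -0.53. Both steps kept their direction under each scaling of the libraries described below, but not their order of size. S6 against S5 was the larger step with the same sum (-1.25), the same upper quartile (-1.04) and the same sum without the most abundant genes (-0.996). The largest step of CaDRM2 in the deposited values was a higher value at S5 (24.2 FPKM) than at S4 (19.6 FPKM), a difference of 0.29, and 41.0% of genes of similar mean level had a smaller step there. With the same summed FPKM in each library this step was -0.13. Under the 3 scalings just named, in that order, the largest step of CaDRM2 was S6 against S5, at -0.93, -0.70 and -0.65.

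Of the steps between successive stages, genes of similar mean level differed most between S6 and S5, and there both DRM genes were below the median of these genes. Between S5 and S6, 56.4% of 17035 genes expressed at one of these stages or both were at least 2-fold apart, and between S1 and S7 61.8% of 17375 genes were. In the deposited values neither DRM gene was so in either comparison. Between S6 and S5, CaDRM1 passed the limit on log2(FPKM + 1) with the same sum (-1.25) and after upper quartile scaling (-1.04). When the sum left out the most abundant genes, it was just under the limit on this scale (-0.996). The linear ratio of S6 to S5 was then 0.472, which is more than 2-fold apart. With the same sum both genes passed the limit between S7 and S1. CaDRM2 differed by -0.16 between S6 and S5, and 9.50% of genes of similar mean level differed by less. Across the whole series, from S1 to S7, CaDRM2 differed by 0.07 and CaDRM1 by -0.08, and 3.37% and 4.06% of their similar genes differed by less. Between S7 and S6, in contrast, the differences of 0.22 for CaDRM2 and 0.26 for CaDRM1 were about as large as the median absolute difference of similar genes, which was 0.23 and 0.22. In this last step the DRM genes were no steadier than other genes of their level. For CaDRM1 the same held between S2 and S1, where 50.5% of similar genes differed by less, and between S4 and S3, where 67.9% did.

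**Figure D4:**
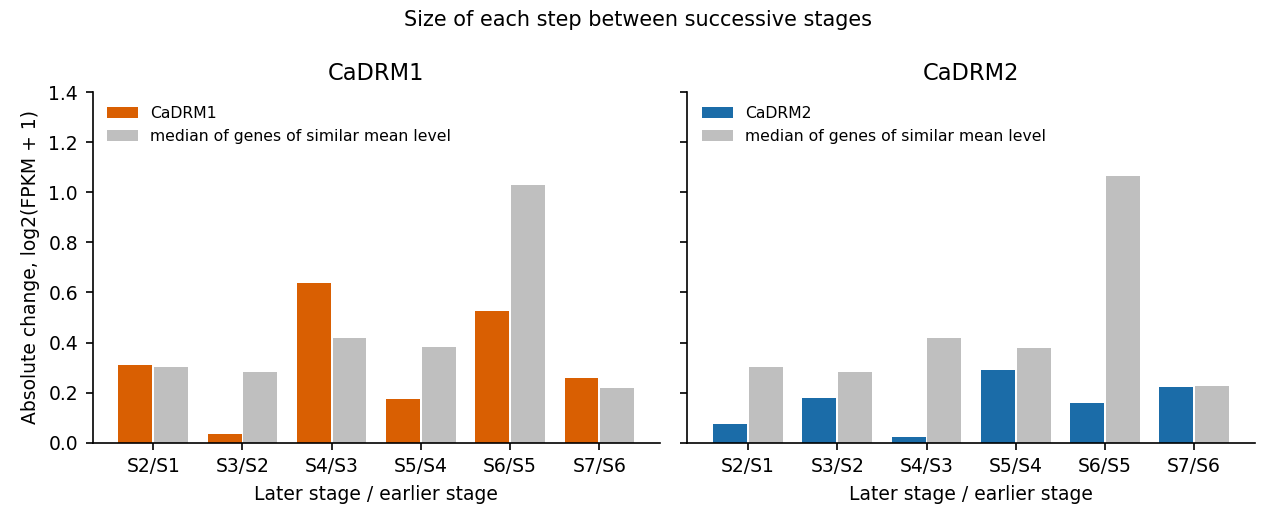
Absolute difference in log2(FPKM + 1) between successive stages (y axis) for CaDRM1 (left) and CaDRM2 (right), beside the median absolute difference of genes of similar mean level (grey), from the deposited values. The grey bars are highest for S6/S5, at 1.03 and 1.07, where the members are at 0.53 and 0.16.

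The steadiness of both genes was tied to the scaling of the libraries. The summed FPKM of the genes was between 787865 (S2) and 2379437 (S7), and the 10 most abundant genes held 24.8% of the sum at S7 against 6.67% at S1. When each library was brought to the same sum, CaDRM2 was 3.06-fold and CaDRM1 4.02-fold higher at its highest than at its lowest stage, with the lowest value at S6 for both. The highest was then S2 for CaDRM2 and S4 for CaDRM1. The ranges became 1.53 and 1.85 on log2(FPKM + 1), and 31.3% and 39.1% of similar genes had a smaller range. Scaling to the same upper quartile gave 1.74-fold and 2.75-fold, with 9.51% and 30.6% of similar genes below. Leaving the 100 most abundant genes of any library out of the sum gave 1.85-fold and 2.83-fold, with 11.2% and 30.4% below. Scaling by the median ratio changed little (1.28-fold and 1.67-fold), since the deposited values were already nearly level in this respect, with factors between 0.975 and 1.08.

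Between the first and the last stage, the direction for CaDRM2 and the size of the difference for CaDRM1 varied with this choice. For S7 against S1, CaDRM2 differed by 0.07 as deposited and by 0.03 with the median ratio, but by -0.55 with the same upper quartile, -0.59 with the same sum without the most abundant genes and -1.20 with the same sum. CaDRM1 differed by -0.08, -0.12, -0.69, -0.72 and -1.31 in the same order of scalings. A scaling moves all genes of a library together, so that the position of a member relative to the median gene is nearly the same under each scaling and does not serve as a check of it. This position varied with the genes over which the median was taken. In the deposited values the median difference for S7 against S1 was -0.06 over the 19168 expressed genes, 0.13 over 13613 genes whose seed mean reached 5 FPKM and 0.11 over 13943 genes whose mean over all 8 groups did, a choice made after the values were seen. CaDRM2, at 0.07, was above the first of these medians and below the other two, and no direction relative to other genes is given for it. CaDRM1, at -0.08, was below all of them but close to the first, at -0.06. With 1 pooled value per group, no direction relative to other genes is given for CaDRM1 either.

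**Figure D5:**
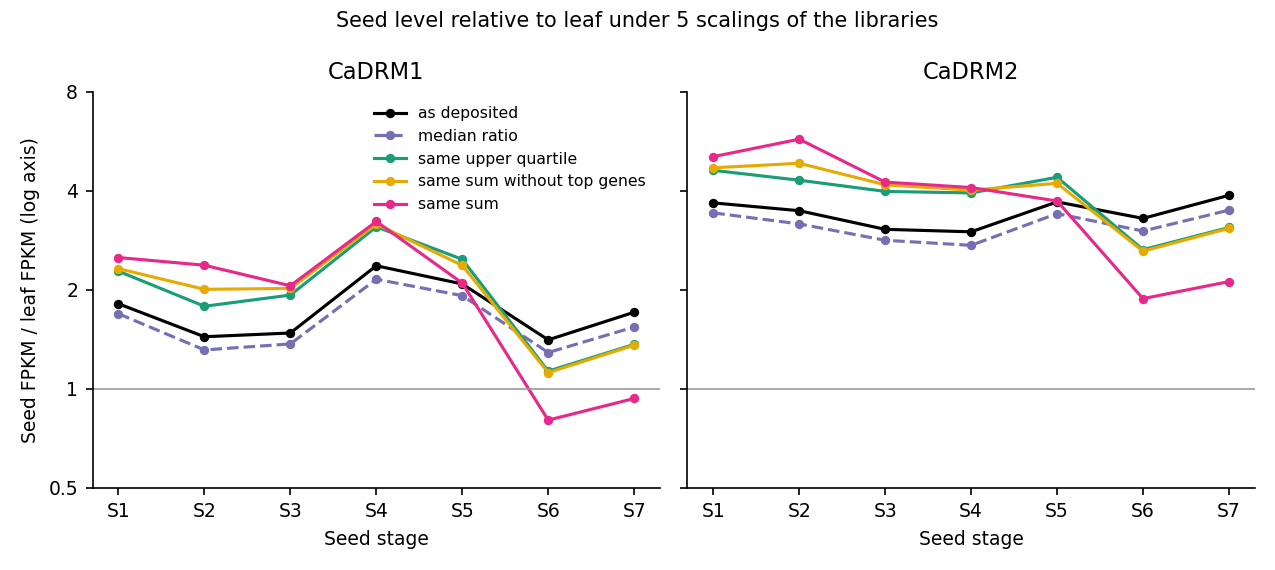
Seed FPKM divided by leaf FPKM (y axis, log axis) at S1 to S7 for CaDRM1 (left) and CaDRM2 (right) under 5 scalings of the libraries. CaDRM2 lies above 1 at every stage under each scaling, whereas CaDRM1 lies below 1 at S6 and S7 with the same sum. For CaDRM1 all 5 lines are highest at S4 and lowest at S6. For CaDRM2 the same sum gives the lowest value, 1.88 at S6.

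A scaling changes the seed-to-leaf ratio of both genes by the same factor, and the ratio of CaDRM2 was the larger at every stage. CaDRM2 was above leaf at 7 of 7 stages under all 5 scalings, although with the same sum it passed the 2-fold limit on log2(FPKM + 1) at 5 of 7. At S7 with the same sum, CaDRM2 was just under this limit, at 0.975. By linear ratio it was above 2-fold there, with 13.3 FPKM against 6.28 FPKM in leaf after scaling. Its ratio of the lowest stage to leaf was between 1.88 and 3.00. CaDRM1 was above leaf at 7 of 7 stages under 4 scalings and at 5 of 7 with the same sum, where the lowest stage was at 0.803 of leaf.

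Ranks within a library do not depend on its scaling. In seeds, CaDRM2 was at or above between 64.0% (S4) and 69.0% (S1) of the 19168 expressed genes, a spread of 4.92 points, and in leaf at or above 41.6%. Only 4 of 2136 genes of similar mean level (0.187%) had a smaller spread of rank over the stages, and the median spread was 28.6 points. CaDRM1 was between 49.6% (S2) and 63.0% (S4), a spread of 13.4 points, with 45.1% in leaf, and 182 of 2045 similar genes (8.90%) had a smaller spread. By rank, as by deposited FPKM, CaDRM2 was the steadier of the pair. Rank is a position relative to the other genes, so it does not show which scaling fits. Those other genes changed as well, since 16142 had 1 FPKM or more at S1 and 14247 at S7.

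Within the methyltransferase genes listed by the study, the steady level set the DRM genes apart from the other 4. In the deposited values, CaDRM2 and CaDRM1 had the smallest and next smallest range of the 12 methyltransferase and demethylase genes. The next of these, the demethylase gene Ca_20137, was close behind CaDRM1 at 0.75 against 0.70. CaMET1, CaCMT1, CaCMT2 and CaCMT3 had ranges between 3.29 and 5.40. The order of the 12 genes is given for the deposited values only, since ranges varied with the scaling. With the same sum, the range was 1.53 for CaDRM2 and 1.85 for CaDRM1. The share of the summed FPKM of the 6 methyltransferase genes that was held by both DRM genes was 27.7% at S1, 44.1% at S2, 40.6% at S3, 53.8% at S4, 63.6% at S5, 96.4% at S6 and 95.8% at S7, against 76.1% in leaf. Their own sum stayed between 31.7 FPKM (S3) and 40.7 FPKM (S5), while the sum of the other 4 genes was 100.1 FPKM at S1, 23.3 FPKM at S5 and 1.22 FPKM at S6. The share itself does not depend on scaling, whereas the sums do. CaDRM2 had the highest FPKM of the 6 genes at S2, S3, S5, S6 and S7, was next to CaCMT3 at S1 and next to CaCMT1 at S4. In leaf CaDRM1 had the highest FPKM and CaDRM2 the next.

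The genes with the most similar profiles were found by the root mean square difference of log2(FPKM + 1) over the 8 groups, each profile taken relative to its own mean, among 11929 other genes of 1 identifier whose mean reached 5 FPKM and that were never listed at 0. For CaDRM2 these were Ca_15237 (0.10, with 27.4 to 32.8 FPKM in seeds and 10.2 FPKM in leaf), Ca_04314 (0.11, with 22.8 to 29.5 FPKM in seeds and 7.49 FPKM in leaf) and Ca_05721 (0.12, with 9.17 to 14.9 FPKM in seeds and 2.80 FPKM in leaf). For CaDRM1 they were Ca_02661 (0.10, with 4.48 to 8.36 FPKM in seeds and 3.79 FPKM in leaf), Ca_06834 (0.12, with 41.0 to 73.6 FPKM in seeds and 30.8 FPKM in leaf) and Ca_06614 (0.13, with 8.96 to 13.0 FPKM in seeds and 6.08 FPKM in leaf). CaDRM1 and CaDRM2 differed from each other by 0.40, so that CaDRM1 stood at place 546 among the genes most like CaDRM2.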

How the data were processed

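RNA-seq of 24 chickpea samples (3 from each of 7 seed stages and leaf) was analysed from FPKM values. The authors used NGS QC Toolkit for read filtering, TopHat for mapping to the genome of kabuli chickpea and Cufflinks for FPKM, and deposited 1 FPKM column per group. How the 3 samples were pooled and how the libraries were scaled is not stated. Groups were taken from sample titles. Entries without a gene identifier (7268 of 35234) were left out. Of 28269 identifiers, 0 matched the RefSeq gene table given, so no position, annotation or sequence is shown.

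Values were compared on log2(FPKM + 1) with Python 3.11.15, pandas 2.3.3 and NumPy 2.4.6. A gene was expressed at 1 FPKM or more in any group. The limit was 2-fold, and genes of similar mean had a mean over S1 to S7 no more than 25% apart, relative to the smaller mean. For genes with several entries, the entry with the highest mean was used. Scaled libraries were brought to the geometric mean of the quantity named. Because each group had 1 value, no test was made, and sampling precision is unknown. Calculations were tested on simulated data. The members, gene lists and measures were chosen with earlier results of these data known. Genes named were the members, the genes listed by the study and the 3 most similar profiles for each member. The alternatives that left out S6 and S7 were chosen after seeing the data. No column of another series was used.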

Additional observations from a re-analysis of the deposited data

How the results depend on the processing

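Of 158 alternatives over 15 results, 134 moved log2 values by less than 1.5-fold, counts by at most 1.5 times and shares of similar genes by at most 10 points. These include 3 in which a difference of CaDRM2 turned its direction: S7 minus S5, 0.06 as deposited, was -0.49 with the same upper quartile and -0.43 without the most abundant genes, and S5 minus S3, 0.27 as deposited, was -0.18 with the same sum. The mean seed-to-leaf differences of both genes were among the 134 under every alternative tried. With the same sum, the ranges over S1 to S7 were 1.85 for CaDRM1 and 1.53 for CaDRM2, and CaDRM1 had 1.35 after upper quartile scaling and 1.39 when the sum left out the most abundant genes. In the same order of scalings, S7 minus S1 was -1.31, -0.69 and -0.72 for CaDRM1 and -1.20, -0.55 and -0.59 for CaDRM2, and with the same sum S7 minus S5 was -1.06 and -0.77. The share of similar genes with a smaller range became 39.1%, 30.6% and 30.4% for CaDRM1, and 31.3% with the same sum and 11.2% without the most abundant genes for CaDRM2. Without S6 and S7 it was 26.1% for CaDRM1, against 5.87% with all stages. When the same sum was also used, it was 12.6% for CaDRM2 and 12.65% for CaDRM1. The count of 2941 genes less than 2-fold apart over S1 to S7 became 1945 and 6951 with pseudocounts of 0.1 and 5, and 11739 with no minimum, which adds genes near 0. The 824 genes at least 2-fold higher at every seed stage than in leaf became 1289 and 353 with these pseudocounts. The causes of the other movements were not tested. No paired analysis was possible because each group has 1 pooled value, and replicates could not be left out for the same reason. Which scaling fits these libraries cannot be told from the FPKM values alone.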

Other observations

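The 6 demethylase genes listed by the study remove the mark that DRM enzymes set. The ratio of the summed FPKM of CaDRM1 and CaDRM2 to that of these genes, which does not depend on scaling, was 0.940 at S1, 0.849 at S2, 0.719 at S3, 0.567 at S4, 0.485 at S5, 0.644 at S6 and 0.987 at S7, against 1.93 in leaf. It was lowest at S5, where the DRM sum was 40.7 FPKM and the demethylase sum 83.9 FPKM. The ratio depended on which entry of a gene is used, since Ca_20137 and Ca_08414 each have 2 entries. With all entries summed it was 0.471 at S5, 0.372 at S6 and 0.498 at S7, against 0.729 in leaf, and the seed stages S1 and S2 were then above leaf at 0.847 and 0.788.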
